A study of Drosophila melanogaster with 2 samples.

Results

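Chromatin regions bound by the CG6654-eGFP fusion were examined at 10 genes of germline and translational control in Drosophila melanogaster embryos. The genes were pum, nos and brat of the Pumilio repression complex, osk and vas of the pole plasm, aub, AGO3 and cuff of the piRNA pathway, and bgcn and bam of germline stem cell differentiation. They are 10 of 18277 annotated genes, 13968 of them protein-coding. Every region was taken whose summit lay in one of the genes or within 2 kb of it. The genes were chosen for their function and with the height of the peak in pum known, so peak values at them are descriptions and carry no test.

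There is 1 group with 2 libraries, which the labels call biological replicates 1 and 3, and no second condition to compare. Each was a collection of whole embryos of both sexes at 0 to 12 h, from a transgenic line that stably makes CG6654, a zinc finger protein, with GFP at its C terminus. Chromatin was sonicated and precipitated with an antibody against GFP, and a control experiment named in the labels was not analysed here. Whether the untagged protein was also present is not given, and each value averages over all stages and cell types of the embryo, of which germ cells are a small share.

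The posterior of the fly embryo is patterned by mRNAs that are stored and repressed in the egg. Pumilio binds the 3' UTR of hunchback mRNA and, with Nanos and Brat, blocks its translation in the posterior. Oskar gathers the pole plasm there, where Vasa and Aubergine, the product of aub, collect and from which germ cells form. In the adult ovary, Pumilio and Nanos keep germline stem cells from differentiating, and Bam with Bgcn ends that state. Much of the RNA of these genes in early embryos is laid down by the mother, and pum and brat are also used in other tissues, the nervous system among them.

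The highest region at these genes lay in an intron of pum and held 2 copies of the 8-base word CAAACTGT. That word is written ACAGTTTG on the other strand. Among 8-base words it had the largest difference in share between summits and flanks, over the peaks that belong to none of the 10 genes. The sequences are the plus strand of the dm6 build from 5' to 3', read from the RefSeq genome, at the 3 pum peaks of highest signal and at the highest peak of brat. The stretch at the highest pum peak reaches 100 bp to both sides of the summit, and the other 3 reach 50 bp. Within 50 bp of the summit of the highest pum peak lies only 1 of the 2 copies. Capitals mark the 8-base word at the highest and the third peak, and at the second peak the shorter word AAACTGT. The use of the shorter word was not planned, and its shares are given with those of the 8-base word below. The brat sequence is shown because it holds neither. The stretch at the second peak overlaps coding sequence of pum, and the other 3 overlap no annotated exon.
pum, the highest peak, chr3R:9214349-9214549: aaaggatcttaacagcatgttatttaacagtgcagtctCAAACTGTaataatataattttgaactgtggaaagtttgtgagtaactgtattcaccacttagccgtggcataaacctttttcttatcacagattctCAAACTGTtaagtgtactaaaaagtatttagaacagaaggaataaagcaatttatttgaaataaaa
pum, the second peak, chr3R:9233489-9233589: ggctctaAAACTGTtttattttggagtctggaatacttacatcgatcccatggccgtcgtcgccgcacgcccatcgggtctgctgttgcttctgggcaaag
pum, the third peak, chr3R:9172289-9172389: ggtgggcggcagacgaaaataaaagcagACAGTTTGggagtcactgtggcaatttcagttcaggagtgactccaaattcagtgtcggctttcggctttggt
brat, the highest peak, chr2L:19165107-19165207: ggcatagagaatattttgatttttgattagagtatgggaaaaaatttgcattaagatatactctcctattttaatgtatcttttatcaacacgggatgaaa

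The deposited lists give each region a signal value, which is the authors' own score with no stated scale, and ranks here run from the highest signal down. The authors' set of reproducible peaks, selected by the irreproducible discovery rate (IDR) over both replicates, held 2962 peaks with signals between 74.8 and 8385 and a median of 129. Replicate 1, replicate 3 and the pooled reads each have an unthresholded list of 30000 regions. Their lowest signals were 12.6, 12.4 and 19.7, so most of those regions are weak, and presence in one of them means little by itself. No read totals come with the lists, and the depth of the libraries is therefore unknown.

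IDR summits lay in or within 2 kb of 4 of the 10 genes, namely pum, brat, bgcn and cuff. Over all protein-coding genes the share was 22.9%. Within 500 bp of an annotated start site of the gene, 2 of the 10 had an IDR summit, bgcn and cuff, against 10.9% of all protein-coding genes. Long genes offer more room for a summit. Among the 6 genes shorter than 10 kb, 2 had one, where the share of all such genes was 19.1%. Of the 3 genes of at least 40 kb, pum and brat had one and AGO3 had 0, where the share was 55.6%. The numbers of genes are small and nothing is read from the distance to these shares.

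The lower lists reached more of the genes. A pooled region lay in or within 2 kb of 8 of the 10, all but aub and bam, against 71.8% of all protein-coding genes. In replicate 1 it was 7 of 10, without vas, aub and bam, against 66.2%, and in replicate 3 it was 10 of 10, against 74.5%. In all, the 10 genes held 14 IDR peaks, 135 pooled regions, 105 regions of replicate 1 and 158 of replicate 3.

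**Figure D1:**
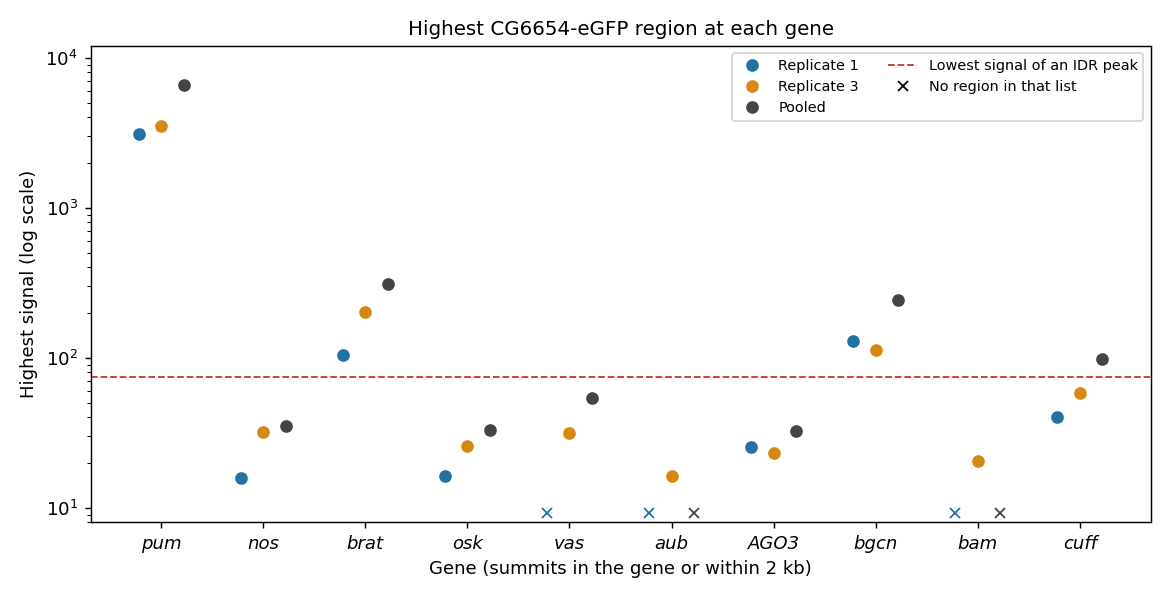
The highest signal (log scale, the authors' score) of any region in each gene or within 2 kb of it, in replicate 1, replicate 3 and the pooled list, with crosses where a list had no region. The values of pum were above those of all the others, brat, bgcn and cuff lay above the lowest signal of an IDR peak (74.8, dashed line) in the pooled list, and the other 6 genes lay below it or had no region.

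pum encodes Pumilio, an RNA-binding protein that recognises a short element in its target mRNAs (FBgn0003165; 3R, 9066343 to 9237682, minus strand). The gene is 171 kb long, with 8 transcripts from 4 start sites. Its highest region (3R, 9213944 to 9214992) had a signal of 3093 in replicate 1 and of 3520 in replicate 3, with ranks 7 and 6, and 6548 with rank 6 in the IDR set. Both replicates thus placed it among their top-ranked regions, and their summits lay 2 bp and 5 bp from the IDR summit. It stood 12391 bp downstream of the nearest pum start site, in an intron. In replicate 1 the same region carried a further summit at 9214648 with a signal of 407 and rank 105.

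The other 7 IDR peaks of pum were far lower. A peak over coding sequence (3R, 9233409 to 9233677), 3486 bp from a start site, had 142 in replicate 1, 143 in replicate 3 and 278 in the IDR set, where it ranked 477. An intronic peak (3R, 9172194 to 9172463), 14389 bp upstream of the most downstream start site, had 134 in replicate 1, 131 in replicate 3 and 265 in the IDR set, with rank 508. The start site nearest to it was that of CG11997, a gene inside pum on the opposite strand, 5178 bp away. These 2 peaks and the highest one are those of the pum sequences given. A peak about 1 kb from the highest (3R, 9213244 to 9213587) had 80.3 in replicate 1, 124 in replicate 3 and 191 in the IDR set.

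The remaining 4 lay 606 to 3228 bp from a pum start site and had IDR signals between 89.1 and 125. One of them (3R, 9229063 to 9229446, signal 125) lay inside lncRNA:CR45196, a non-coding gene within pum, 1122 bp from its start. Another (3R, 9224942 to 9225060, signal 121) lay 1839 bp downstream of a pum start site, and one more (3R, 9227254 to 9227637, signal 99.1) lay 606 bp upstream of the same one. The lowest (3R, 9233605 to 9233988, signal 89.1), over coding sequence, was uneven between the replicates, with 65.6 and rank 1090 in replicate 1 and 34.5 and rank 4933 in replicate 3. For 7 of the 8 peaks the overlapping region of nearest summit was among the 2962 of highest signal in both replicates, and for this one only in replicate 1. In replicate 3 it also met the edge of the region under the neighbouring peak, which had 143 and rank 605.

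No IDR summit lay within 500 bp of any pum start site. The pooled list had regions at 3 of the 4 start sites, the highest with a signal of 42.3, below every IDR peak. The IDR summits were confined to the upper part of the gene. Counted from the most distal start site, all 8 lay between 3.88 and 65.3 kb, and 0 lay beyond 70 kb, although the gene runs on to 171 kb. The unthresholded lists showed no such border. Replicate 1 had 39 summits within the first 70 kb and 30 beyond, replicate 3 had 53 and 48, and the pooled list had 52 and 41. The stretch beyond 70 kb is the longer one, so in each list the summits were denser in the first 70 kb. The 70 kb limit was chosen after these positions were seen.

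**Figure D2:**
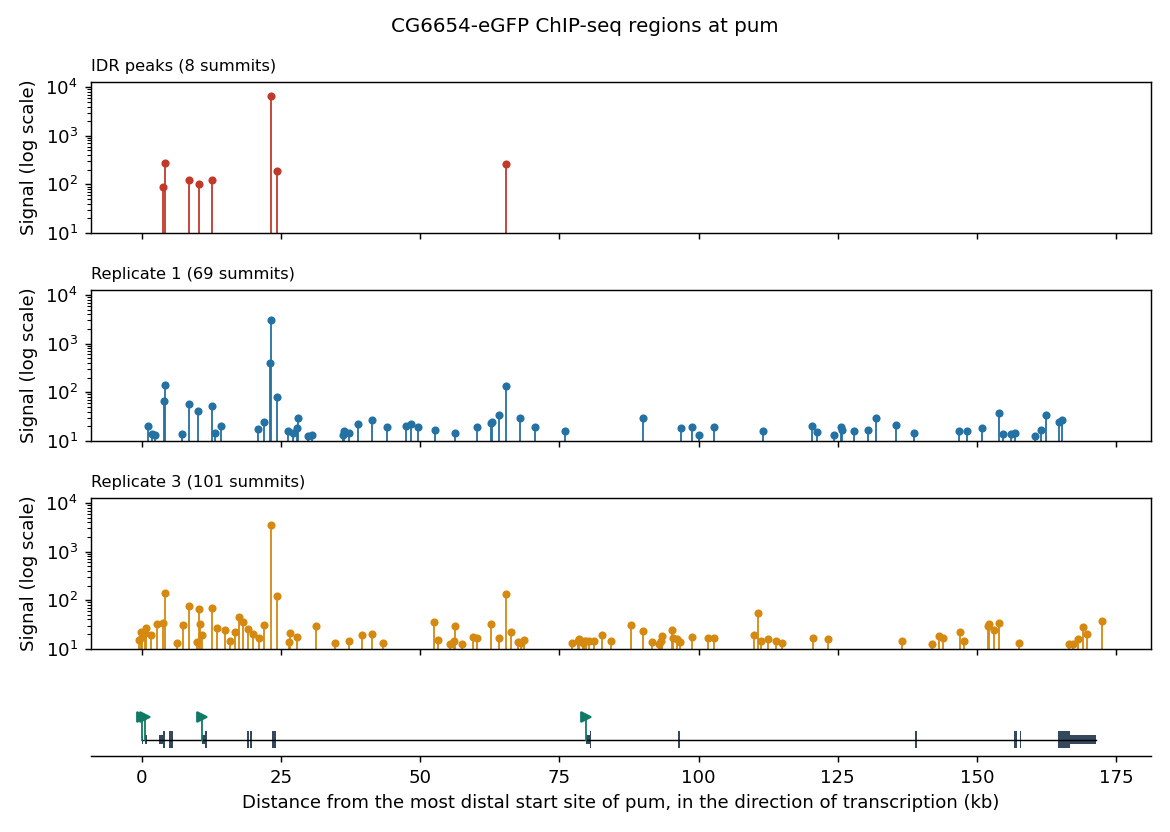
Signal (log scale, the authors' score) of each summit along pum in the IDR set, replicate 1 and replicate 3, against the distance from the most distal start site in kb, with exons as boxes (tall for coding sequence) and start sites as arrows. The highest summit stands at the same place in both replicates, with 3093 and 3520, the 8 IDR summits all lie within 65.3 kb of the distal start, and weak summits run along the whole gene.

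Set beside genes of like length, the number of peaks at pum was high but not alone. Among the 87 protein-coding genes of at least 100 kb, the median was 1 IDR summit and 39 genes had 0. They were matched by length and not by place on the arms, which lowers what the median can say about pum. AGO3 is among the 39, and no IDR summit lay within 500 kb of it either. More than the 8 of pum were found at CG1677 with 20, sick with 11 and mtgo with 9, and as many at Dys, Fur1 and kirre. Per 10 kb of gene and flanks, pum had 0.456 IDR summits, where the average over all chromosome arms was 0.215. In the pooled list it had 5.3 regions per 10 kb, against 2.18 over all arms. The arms include the Y chromosome and stretches without IDR summits. The 500 kb on both sides of pum held a further 38 IDR summits and 293 pooled regions, and those of AGO3 held 0 and 60. The surroundings of pum were thus also denser in summits than the arms as a whole.

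**Figure D3:**
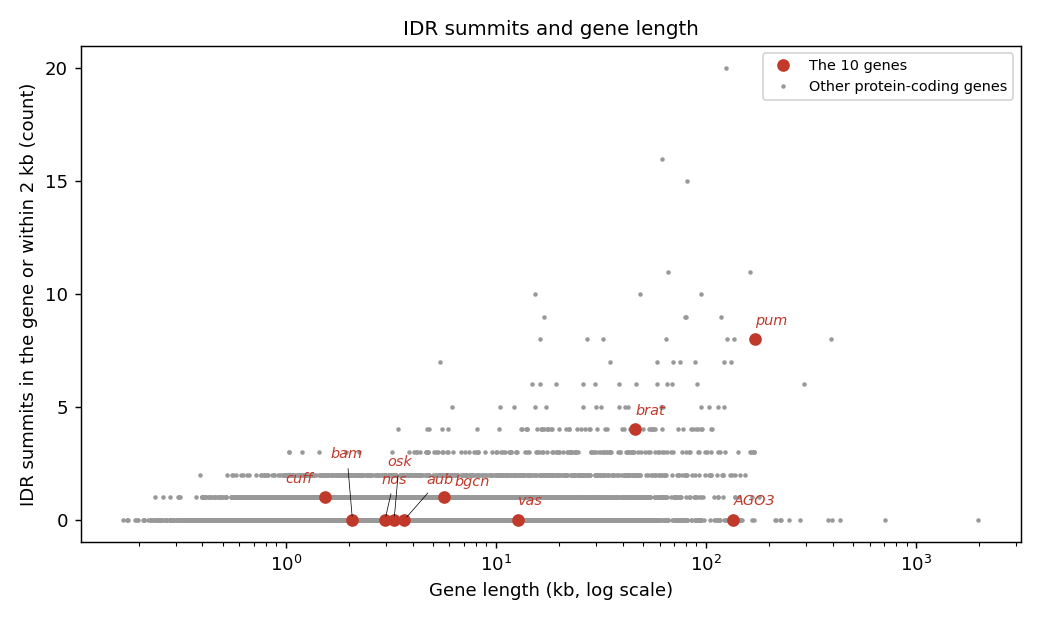
IDR summits in each protein-coding gene or within 2 kb of it against gene length in kb (log scale), with the 10 genes in red and the others in grey. Counts spread upward with length, pum stands at 8 and brat at 4, and AGO3, of 135 kb, stands at 0.

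Genes with a highest peak like that of pum were sought among 176 protein-coding genes of at least 50 kb. Only genes whose highest IDR peak overlapped a region in the pooled, replicate 1 and replicate 3 lists were included. The measure was the distance between log10 signals over the IDR, pooled, replicate 1 and replicate 3 lists. The IDR and pooled signals of a peak are the same value, which therefore counts double. The peak of pum, with 3093 in replicate 1, 3520 in replicate 3 and 6548 in the IDR set, was nearest to that of CG32264, with 3115, 3899 and 6978. The CG32264 peak lay 1377 bp from a start site, also in an intron. Next came Eip74EF, an ecdysone-induced ETS transcription factor, with 5164 in the IDR set. It was followed by bun, a homologue of the mammalian TSC22 factors, with 4271, by CG43658 with 2966 and by Dys, which encodes dystrophin, with 2834. The peaks of Eip74EF, bun and Dys were intronic and 4103 to 15702 bp from a start site, and that of CG43658 lay downstream of the gene.

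brat encodes an NHL-domain protein that joins Pumilio and Nanos on hunchback mRNA and restrains growth in neural stem cell lineages (FBgn0010300; 2L, 19133816 to 19179758, plus strand, 45.9 kb, 3 start sites). Its highest peak (2L, 19165067 to 19165285) had 105 in replicate 1, 202 in replicate 3 and 309 in the IDR set, where it ranked 409. It lay in an intron, 710 bp upstream of the most downstream start site. A further intronic peak (2L, 19141700 to 19142083) had 58.3 in replicate 1, 77.2 in replicate 3 and 130 in the IDR set, 8076 bp from a brat start site and 6659 bp from that of Polr1D, an RNA polymerase subunit gene on the opposite strand. The other 2 peaks also stood closer to the start of another gene than to one of brat. One (2L, 19159151 to 19159534, signal 111), with 45.4 and 58.3 in the replicates, had its summit 44 bp from the start of lncRNA:CR44977. The other (2L, 19131872 to 19132255, signal 82.7) lay 1752 bp before brat and 110 bp from the start of AsnRS, an asparaginyl-tRNA synthetase. It was the least even of the brat peaks, with 17.8 and rank 12559 in replicate 1 and 52.9 and rank 2600 in replicate 3.

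**Figure D4:**
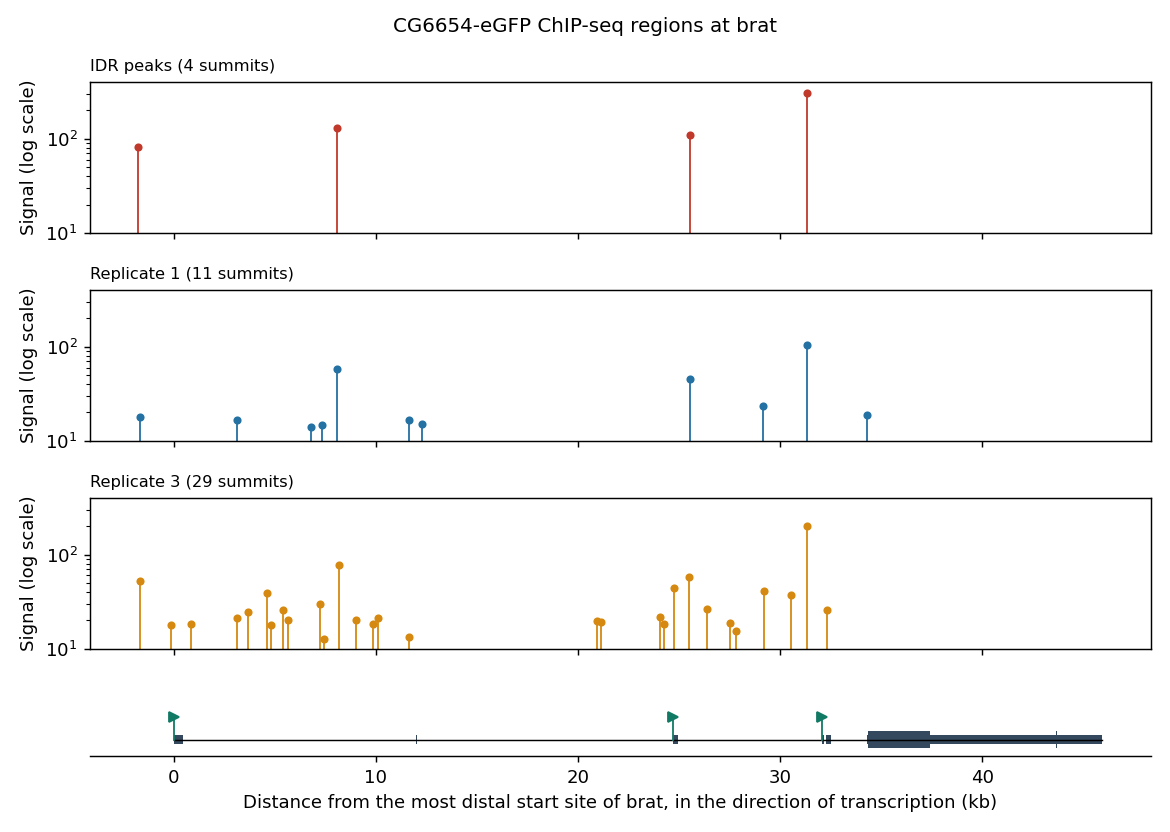
Signal (log scale, the authors' score) of each summit along brat and 2 kb on both sides in the IDR set, replicate 1 and replicate 3, against the distance from the most distal start site in kb, drawn as for pum. The highest IDR summit, with 105 and 202 in the replicates, stands just before the third start site, and the regions in replicate 3 (29) outnumber those in replicate 1 (11).

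nos encodes Nanos, the zinc finger partner of Pumilio (FBgn0002962; 3R, 19157238 to 19160202, plus strand), and had no IDR summit. Its highest region had a signal of 15.7 and rank 17818 in replicate 1 and of 32.0 and rank 5570 in replicate 3. In the pooled list the highest had 35.1, 908 bp inside the gene, and a region 279 bp before the start had 32.3. Both lie within CG11779, which runs on the opposite strand, and the summit of the upstream one is 58 bp from a start of that gene. The nearest IDR summit was 2177 bp beyond the gene (signal 142), 79 bp from the start of CG42359.

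At the pole plasm genes the signal was low as well. osk, whose mRNA is brought to the posterior pole and whose protein starts pole plasm assembly (FBgn0003015; 3R, 8935126 to 8938395, plus strand), had at most 16.3 in replicate 1, 25.6 in replicate 3 and 32.8 in the pooled list. The pooled and replicate 3 summits lay over coding sequence, and the one of replicate 1 lay 1801 bp upstream, so the highest regions of the replicates were not at the same place. vas, a DEAD-box RNA helicase of germ cells (FBgn0283442; 2L, 15061656 to 15074311, plus strand), had no region in replicate 1, and its highest had 31.6 in replicate 3 and 54.2 in the pooled list. That pooled region, 191 bp before the start, had the highest signal at any of the genes that lacked an IDR peak, and the lowest IDR peak of the series had 74.8. The start site of vas is also that of solo, so the region belongs to both. The nearest IDR summits were 7254 bp from osk, with a signal of 151, and 4682 bp from vas, with 118.

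The PIWI-clade proteins Aubergine and Argonaute 3 cut transposon RNA in turn and so amplify piRNAs. aub (FBgn0000146; 2L, 10997819 to 11001476, minus strand) had 0 regions in replicate 1 and in the pooled list. Its 2 regions in replicate 3 had 16.2 and 14.7, both below the median of that list, 18.5. The nearest IDR summit, 2668 bp away, lay 9 bp from the start of RpL9, a ribosomal protein gene (signal 99.2).

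AGO3 (FBgn0250816; 3L, 23554593 to 23689640, plus strand) is 135 kb long. It had 0 IDR summits and 5 pooled regions, and its highest signals were 25.5 in replicate 1, 23.0 in replicate 3 and 32.5 in the pooled list. The replicates differed in number, with 19 regions in replicate 1 and 3 in replicate 3. The difference reached well beyond the gene. Over the gene and 500 kb on both sides, replicate 1 had 172 regions, replicate 3 had 18 and the IDR set had 0, and the nearest IDR summit was 675709 bp away, 100 bp from the start of Chro. Over pum and 500 kb on both sides the order was the reverse, with 276 in replicate 1 and 448 in replicate 3, beside 46 IDR summits. What differs between the libraries around AGO3 was not tested.

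cuff encodes Cutoff, which acts with Rhino and Deadlock on the transcription of piRNA clusters (FBgn0260932; 2R, 11886067 to 11887603, plus strand). Its peak (2R, 11885558 to 11885941) had 40.3 in replicate 1, 58.6 in replicate 3 and 98.0 in the IDR set, with rank 2127. The summit lay 317 bp before cuff but 165 bp from the start of CG13185, which runs the other way, so the peak may be given to either gene. A weaker pooled region stood 104 bp before cuff, with a signal of 43.3.

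bgcn encodes a protein related to DExH-box helicases that works as the partner of Bam (FBgn0004581; 2R, 23853270 to 23858921, minus strand). It was the only one of the 10 genes with an IDR summit inside its own transcribed sequence within 500 bp of a start site. The peak (2R, 23858657 to 23858869) had 130 in replicate 1, 112 in replicate 3 and 244 in the IDR set, where it ranked 578. The summit lay in the 5' UTR, 158 bp from the start, and the summits of both replicates lay 0 and 16 bp from it. bam, the switch that turns a stem cell daughter toward differentiation (FBgn0000158; 3R, 25243039 to 25245109, minus strand), had 0 regions in replicate 1 and in the pooled list. It had 3 in replicate 3, the highest with 20.5, 224 bp before the start. The nearest IDR summit was 2410 bp away with a signal of 521, 5 bp from the start of RpS27, another ribosomal protein gene.

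The limit of 2 kb decided some of these calls. The IDR peak farthest from its gene among those counted was the one 1752 bp before brat, and the closest ones left out were those 2177 bp from nos, 2410 bp from bam and 2668 bp from aub. By signal, the lowest counted peak was that at brat with 82.7, and the highest region not in the IDR set at a gene without a peak was that at vas with 54.2.

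Over all 4 genes with peaks, 9 of the 14 IDR summits lay in introns, 2 lay within 500 bp of a start site of the gene itself and 4 within 500 bp of any start site. The median signal was 128, against 129 for the other 2948 IDR peaks, so apart from the highest region of pum these are peaks of ordinary height. Of the 14, 12 carried the highest −log10 q-value found in the IDR set, 3.65, as did 75.1% of all IDR peaks, so that value does not order them. For 11 of the 14 (78.6%), regions among the 2962 of highest signal in each replicate overlapped the peak by at least 50% in both directions. Of the other IDR peaks, 52.0% did so. With an overlap of 1 bp the shares were 92.9% and 70.1%, and with summits within 100 bp they were 78.6% and 65.5%. Of the 14 peaks, 8 are those of pum.

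**Figure D5:**
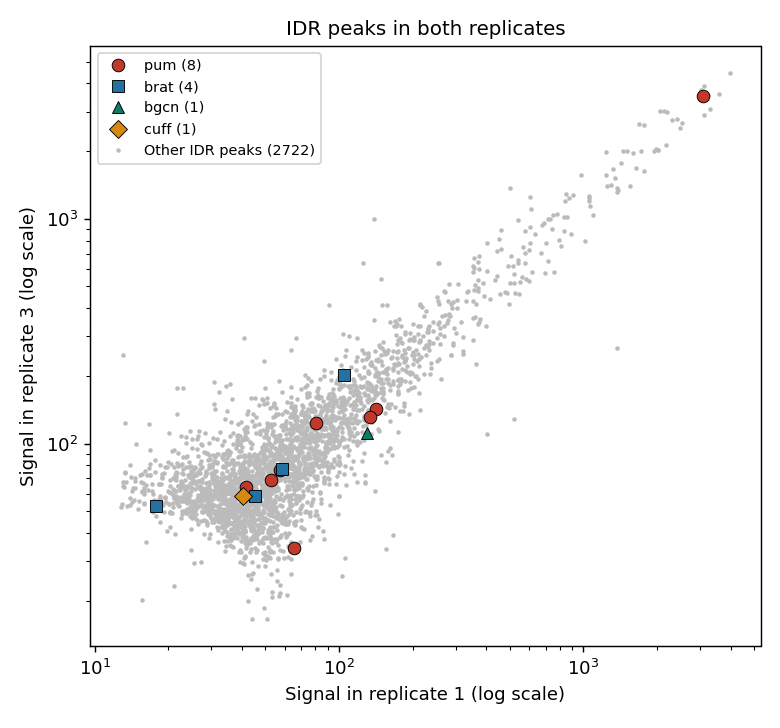
Signal in replicate 3 against signal in replicate 1 (both log scale, the authors' score) for the 2736 IDR peaks that overlap a region in both replicates, with the 14 peaks at pum, brat, bgcn and cuff marked. The highest pum peak stands at the upper end in both replicates, and the others lie within the cloud, with 1 brat peak low in replicate 1 (17.8) and 1 pum peak low in replicate 3 (34.5).

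The word ACAGTTTG was the 8-base word whose share at summits exceeded that in flanks by most, over the 2948 IDR peaks outside the 10 genes. At the 10 genes, windows reaching 50 bp to both sides of the summit held it, on either strand, in 2 of 14 cases (14.3%), both in pum, at the highest and the third of its peaks. The same windows held it at 5.56% of the other summits, windows 200 to 300 bp away from those in 0.695%, and windows of the same length at the starts of 13968 protein-coding genes in 0.508%. In the other peaks the word became rarer with rank. It was in 37.4% of those among the 100 of highest signal, in 14.6% of the ranks from there to 500, in 4.42% of those from there to 1500 and in 1.72% beyond. The shorter word AAACTGT, second among words of 7 bases behind TTTAAAA, was in 3 of the 14 windows (21.4%). It was in 10.5% of the windows at the other summits and in 2.36% of those 200 to 300 bp away. A match is a run of letters and not a shown binding site.

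In the highest region of pum the 2 copies stood 97 bp apart on the same strand, 58 bp and 38 bp from the summit on either side. Each was preceded by the bases TCT. The last 2 of these with the 8-base word make the 10-base word CTCAAACTGT, written ACAGTTTGAG on the other strand, which overlaps the 8-base word. Of the other IDR regions, 27 of 2948 (0.916%) held 2 or more copies of the 8-base word, 13 of them among the 99 in the top 100. For the 10-base word it was 2 of 2948 (0.0678%), both in the top 100. Copies were counted over whole regions, which differ in width, and that of pum spans 1049 bp. The window reaching 50 bp to both sides of its summit holds 1 copy. The chromosome arms hold 321 copies of the 10-base word in all, and 1 of the 13968 start windows has one. The length of 10 bases was chosen after the sequence of the pum region was seen.

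Most copies of the 8-base word in these genes were not at peaks. pum and its flanks held 13 copies, or 0.741 per 10 kb where the arms as a whole held 0.469, and 2 of the 13 were within 50 bp of an IDR summit. AGO3 held 6, with 0 within 50 bp of a region in any list. brat held 2, with 0 at an IDR summit and 1 at a pooled summit. The other 7 genes held 0, bgcn and cuff with their IDR peaks included. GC content at the 14 summits ran from 21.8% to 62.4% with a median of 33.7%, which was also the median of the other IDR peaks.

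The further genes of the members' pathways were counted by the same rule, in 4 lists that overlap in a few genes and include the members. Of the 20 genes of the repression complex and its targets, 10 had an IDR summit within 2 kb, against 22.9% of all protein-coding genes, and so had 8 of the 17 that are not among the 10 genes. Outside the 10 genes the highest peaks were at eIF4EHP, a cap-binding protein that Brat recruits, with a signal of 498, and at CycB, the cyclin B gene whose mRNA Pumilio and Nanos repress in germ cells, with 478. Lower ones were at Mad, the transcription factor of the Dpp pathway, with 283, and at Not1, the scaffold of the CCR4-NOT deadenylase, with 173. Only that of Mad was intronic. Those of CycB and Not1 lay beyond the end of the gene, that of Not1 426 bp from the start of asRNA:CR45281, and that of eIF4EHP lay 216 bp before its start and 160 bp from the start of CG18428. hb, the classic target, had no IDR summit.

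Of the 30 pole plasm genes, 15 had an IDR summit within 2 kb, none of them osk, vas or nos, against 22.9% of all protein-coding genes. The highest were at Imp, an RNA-binding protein, with 265 in replicate 1, 368 in replicate 3 and 623 in the IDR set. They were followed by capu with 243 and spir with 219, both actin nucleators, and by exu with 236, an RNA localisation factor. The peaks of Imp, capu and spir were intronic and 2576 to 15292 bp from a start site of the gene, and that of spir was nearer to lncRNA:CR43606, at 8888 bp. The peak of exu lay beyond the end of the gene, 3900 bp from its start and 715 bp from that of Fem-1.

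The piRNA pathway had the lowest share of the 4 lists, with 6 of 34 genes (17.6%), beside the 22.9% of all protein-coding genes, and 5 of these 6 are other genes than the 10. Peaks at wde, a cofactor of the histone methyltransferase Eggless, had 274 and at papi, a Tudor-domain protein, 249. armi, an RNA helicase, had 119 and sov, a zinc finger protein, 103, but these summits were 147 bp from the start of eIF5B and 120 bp from that of Coq7. piwi, rhi, del, zuc, spn-E and krimp had 0. Of the 27 germline stem cell genes, 12 had one (44.4%), against 22.9% of all protein-coding genes. They include pum, brat and bgcn, and outside the 10 genes the highest signal was at gbb, a BMP ligand, with 604, its summit 75 bp from the start of asRNA:CR45928. Med, the Smad4 homologue, had 348, with its summit 24 bp from the start of Mnat9 and no overlapping region in replicate 1. Rbfox1 had 193 in an intron, nearest to the start of CG6527, 4392 bp away.

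The genes of these lists were longer than most. Their median length was 9.85 kb in the repression list, 8.29 kb in the pole plasm list, 7.01 kb in the stem cell list and 4.58 kb in the piRNA list, against 2.16 kb over all protein-coding genes. At start sites alone the counts were 3 of 20, 6 of 30, 3 of 27 and 2 of 34 genes, against 10.9% of all protein-coding genes. The median of the highest signal over the list genes with a peak was 228, 133, 218 and 111 in that order, against 148 for all 3195 protein-coding genes with one. No list is shown to stand apart from genes of its length, since the lists were chosen with results of these data known and no test was made.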

How the data were processed

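ChIP-seq regions of 2 biological replicates of 0 to 12 h embryos were used as the authors deposited them on dm6, without headers, in narrowPeak order. Per the text deposited beside each library, the authors called regions against a control, in each replicate and on pooled reads, without a threshold, and took the IDR set from these 3 lists. Each region carries the authors' deposited signal value, a score of unstated scale, and a −log10 q-value as deposited. Not given in the sources used here are the aligner, the peak caller and the threshold on IDR. Lists on dm3 were not analysed.

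Summits came from the deposited offset and were placed on genes of Ensembl release 115 (BDGP6), with positions counted from 1. Distances are to the nearest annotated start site. Words were counted once per window, both strands as 1, in the RefSeq Release 6 genome. All comparisons are counts beside the same count over all protein-coding genes or all other IDR peaks, with no test, because the members, the lists and the rules were chosen with earlier results of these data known. Replicates are labelled biological, and their spread is given as both values. Named are the 10 genes, the genes nearest to their IDR peaks, up to 4 further genes of highest signal per list, and the 5 long genes most like pum. The 3 long genes with more summits than pum, the 3 with as many, hb and the 6 piRNA genes at 0 were named after their values were seen. In the lists, nos is named nanos in the annotation, and boot was not matched. Summit placement and the word search were tested on simulated data. Alternatives were other flanks, start windows, the upper 50% of IDR peaks by signal, the pooled list, each replicate alone, overlap rules and word lengths. Python 3.11.15, pandas 2.3.3, numpy 2.4.6 and matplotlib 3.10.9 were used.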

Additional observations from a re-analysis of the deposited data

How the results depend on the processing

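Of 46 alternatives, 29 stayed within 1.5 times the reported count or at the reported value, and 17 moved. All are counts or ranks, which have no direction to reverse. The 4 of 10 genes with an IDR summit became 8 with a flank of 5 kb, which added nos, vas, aub and bam, where the share of all protein-coding genes was 33.3%. The 2 genes with a summit at a start site became 1 (bgcn) within 250 bp, 4 within 1000 bp, which added pum and brat, and 1 in the upper 50% of IDR peaks. In that upper part pum had 4 summits, and the repression, pole plasm, piRNA and stem cell lists had 6, 8, 2 and 7 genes. With start sites alone those lists had 3, 6, 2 and 3. The count of summit windows with the leading word was 4 with windows reaching 100 bp to both sides, where the leading word was AAAAATAT. It was 1 with 7 bases, where the leading word was TTTAAAA, and 1 with 10 bases, a length added after seeing the data. The second-ranked word of 7 bases, AAACTGT, an alternative that was not planned, gave 3. With each replicate left out in turn, the genes counted ranged from 4 to 4, those at start sites from 2 to 2, pum summits from 8 to 12, the 4 lists from 9 to 9, 10 to 16, 5 to 7 and 11 to 11, and the rank of the highest pum region from 6 to 7, with 12 and 7 from replicate 1 alone and the pole plasm count of 10 also. The causes were not tested. Depth is unknown, so how far it limits the weak regions cannot be told.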
